A study of Saccharomyces cerevisiae with 12 samples.

Results

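Zinc cluster proteins are among the largest families of DNA-binding regulators in budding yeast, and this account follows the messenger RNAs of 44 of them. The 44 genes were taken by a fixed list of systematic identifiers out of the 7192 features counted. Each binds DNA, or is thought to, through a small domain in which 6 cysteines hold a pair of zinc ions. All 44 identifiers were found in the count table, and the RefSeq annotation of assembly R64 gave a name or locus tag for each.

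RNA was sequenced from Saccharomyces cerevisiae with and without a clam protein, Cyclina sinensis lectin, which per the series title binds N-acetylgalactosamine and mannose. In the 6 lectin samples (numbered 2, 3, 4, 5, 6 and 8), wild-type cells grown in shaken YPD, a rich glucose medium, were incubated with the lectin. In the 6 control samples (2, 3, 4, 6, 7 and 8), wild-type cells in the same medium were left untreated, and growth to the mid-logarithmic phase came first in both groups. The strain background, mating type, lectin dose, length of incubation and any buffer given to controls were not stated in the labels.

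Zinc cluster regulators commonly bind as dimers to CGG triplets, and the number of bases between the triplets and their orientation decide which regulator fits. Many are present at low levels before their signal arrives and are switched by a metabolite, an inhibitor protein or phosphorylation, so a change in a regulator's RNA is not a change in its activity. In yeast they govern galactose and gluconeogenic enzymes, nitrogen and pyrimidine pathways, heme and fatty acid responses, drug pumps and parts of chromatin and centromere machinery. In RNA from whole cultures, fewer cells expressing a gene and less RNA per cell cannot be told apart.

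The coding DNA of the zinc cluster follows for 10 members on which the results turn, with each cysteine codon in capitals. The sequences run 5′ to 3′ on the coding strand and come from the RefSeq R64 assembly, the build named in the submitters' processing notes. The list holds 6 regulators with more RNA in lectin samples (GAL4, ERT1, ASG1, TEA1, UME6 and WAR1) and 2 pairs of gene duplicates whose balance shifted (HAL9 with TBS1, PDR1 with PDR3).
GAL4, chrXVI:82243-82326, minus strand: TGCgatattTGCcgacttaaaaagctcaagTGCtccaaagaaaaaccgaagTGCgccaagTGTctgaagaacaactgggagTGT
ERT1, chrII:699740-699826, minus strand: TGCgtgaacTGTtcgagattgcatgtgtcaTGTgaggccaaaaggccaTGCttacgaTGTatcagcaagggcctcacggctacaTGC
ASG1, chrIX:102842-102922, plus strand: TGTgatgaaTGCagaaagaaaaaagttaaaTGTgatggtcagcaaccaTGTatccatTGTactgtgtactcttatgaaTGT
TEA1, chrXV:954551-954631, plus strand: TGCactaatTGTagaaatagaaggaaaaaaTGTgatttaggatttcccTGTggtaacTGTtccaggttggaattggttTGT
UME6, chrIV:865129-865212, minus strand: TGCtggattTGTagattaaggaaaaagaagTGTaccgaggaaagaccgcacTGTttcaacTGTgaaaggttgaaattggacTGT
WAR1, chrXIII:115021-115122, minus strand: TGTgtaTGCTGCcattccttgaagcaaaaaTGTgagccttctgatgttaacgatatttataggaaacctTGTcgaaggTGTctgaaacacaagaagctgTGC
HAL9, chrXV:152993-153085, minus strand: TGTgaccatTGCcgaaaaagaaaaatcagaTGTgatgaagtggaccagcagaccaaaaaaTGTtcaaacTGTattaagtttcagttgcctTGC
TBS1, chrII:544083-544175, minus strand: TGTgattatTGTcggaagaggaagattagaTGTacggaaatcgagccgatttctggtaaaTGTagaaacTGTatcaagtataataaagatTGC
PDR1, chrVII:472083-472163, minus strand: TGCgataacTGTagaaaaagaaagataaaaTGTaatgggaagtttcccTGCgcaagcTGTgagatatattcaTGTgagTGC
PDR3, chrII:217512-217592, plus strand: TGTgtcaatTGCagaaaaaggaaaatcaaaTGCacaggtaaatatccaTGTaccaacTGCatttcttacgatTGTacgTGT

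The stretch in the middle of the pattern varied in length, from 5 to 12 codons, which were also the limits set for the search. A search of 6027 annotated protein-coding genes for the spacing of the 6 cysteines found 57 genes, or 0.946%, of which 42 were members. SUT1 and SUT2 did not match the pattern as searched. In 41 of the 42 the cluster lay before the midpoint of the coding sequence, and in UME6 it lay near the end, at codons 771 to 798. All 44 genes have a single coding exon, they lie on 16 chromosomes, and they are long, with a median of 2587.5 bp and a range of 807 to 4509 bp.

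All 44 members passed the filter on low counts, with 120 to 5031 reads per sample out of totals of 17303313 to 21354011 per library. As a family they were expressed at modest levels. In control samples their mean level per length ran from 10.3 CPM per kb (CPM are read counts scaled to a common library size, here per kilobase of gene) for TBS1 to 77.8 CPM per kb for MAL33, the maltose activator gene. The median over members was 23.8 CPM per kb, and 40 of the 44 lay below 52.8 CPM per kb, the median of 5782 tested genes with a known length. Behind MAL33 came YLR278C at 65.0 ± 4.82 CPM per kb in lectin samples and 62.5 ± 1.66 CPM per kb in controls (SD, n = 6 each). RDS1, a gene of cycloheximide tolerance, followed at 57.7 ± 3.64 and 58.02 ± 2.02 CPM per kb in the same order, and UGA3, the activator of GABA use, at 55.4 ± 5.04 and 57.2 ± 3.86 CPM per kb. RDS1 and UGA3, neighbours in the ranking, did not differ beyond their spread. At the low end, SUT1, RSC3, HAL9 and TBS1 lay between 9.50 and 11.8 CPM per kb in lectin samples and between 10.3 and 11.9 CPM per kb in controls. Replicates were close, with a median coefficient of variation over members of 6.13% in lectin samples and 5.29% in controls.

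**Figure D1:**
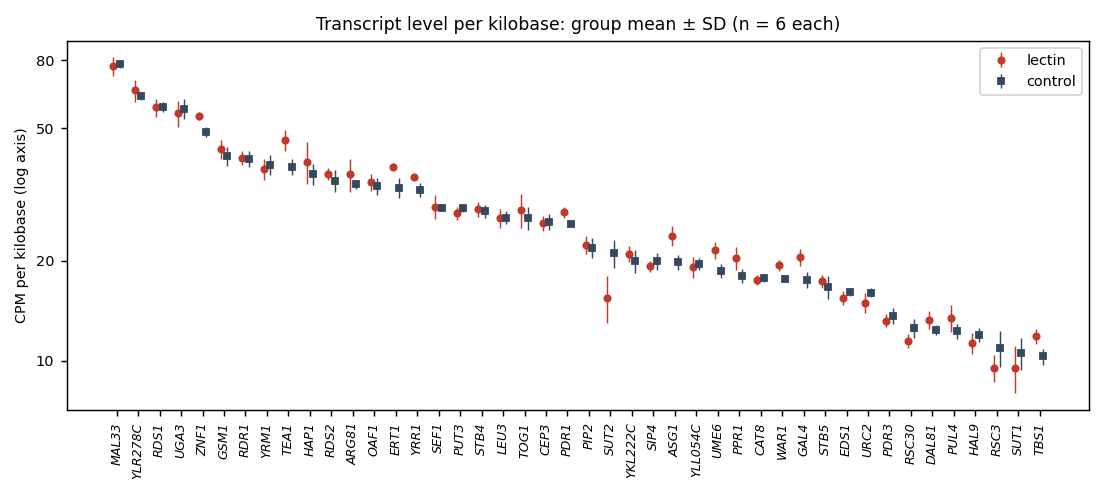
Mean level of each of the 44 members in CPM per kb of gene (log axis), with lectin and control samples side by side and bars of 1 SD (n = 6 each). Points of the 2 groups lie close together, and 40 members lie below the median of all tested genes, 52.8 CPM per kb in controls.

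The central question was whether RNA of these regulators differed between lectin and control samples. Of the 44 members 12 changed at an adjusted p under 0.05 (27.3%), against 29.1% of all 6237 tested genes, so the family as a whole changed about as often as any gene. The changes ran mostly one way: 11 members were higher with lectin (25%, against 14.2% of all tested genes) and 1 was lower (2.27%, against 15.0%). The 11 that were higher rose by 8.35% to 20.3%, and SUT2, the single lower one, fell by 26.3%. The test was edgeR's quasi-likelihood test, adjusted by the Benjamini-Hochberg method over all tested genes, and fold changes are given on the log2 scale, lectin over control, with their standard error (SE). The median log2 fold change was 0.03 over the members and 0.00 over all tested genes, and the median absolute value was 0.08 over the members and 0.11 over all tested genes. Series text calls the samples biological replicates without saying whether they were separate cultures, so p-values measure the spread between these samples, which may be partly technical.

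In 8 of the 44 members (18.2%, against 12.7% of all tested genes) every lectin sample lay outside the range of the controls. These were ASG1, GAL4, ERT1, UME6, ZNF1, WAR1, YRR1 and PDR1, and in each of them all 6 lectin samples were above all 6 controls.

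**Figure D2:**
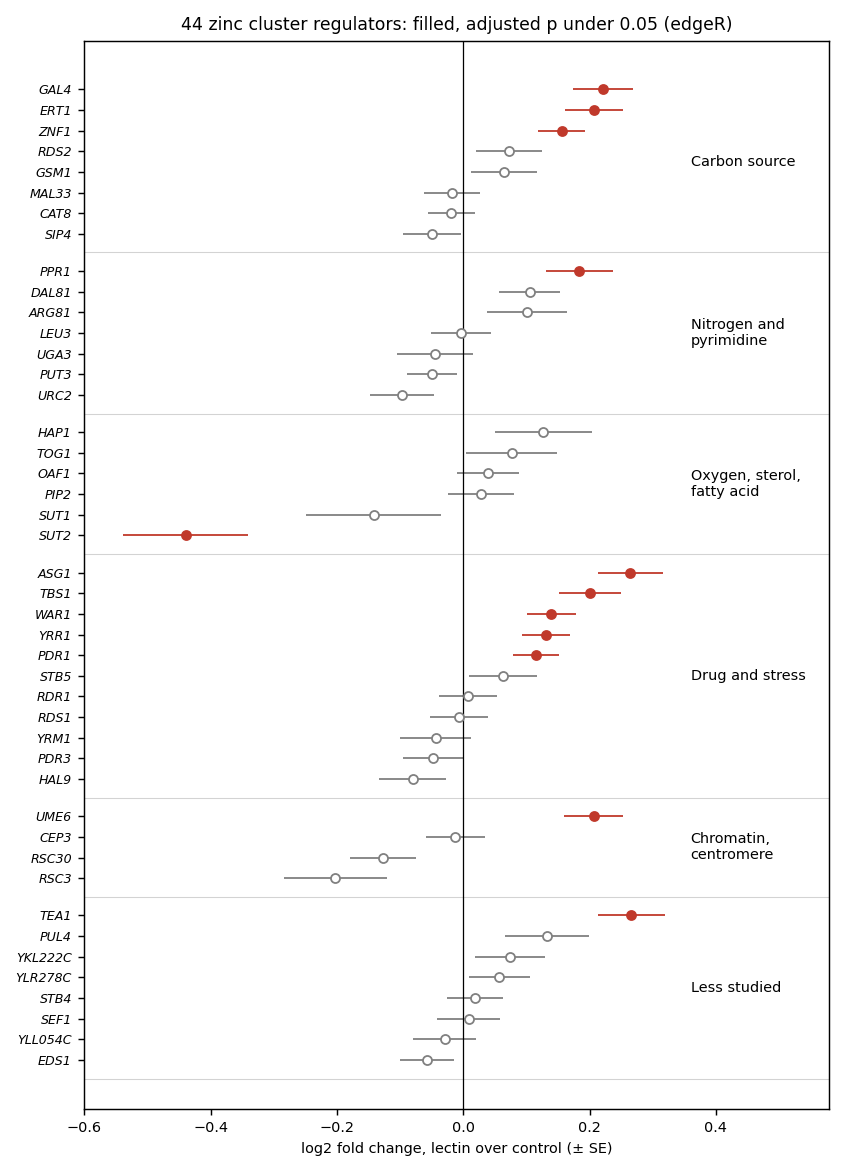
Log2 fold change, lectin over control, of the 44 members grouped by role, with bars of 1 SE, where filled red points passed an adjusted p under 0.05. The 11 called higher lie between 0.12 and 0.27, and SUT2 alone is called lower, at -0.44.

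Among 8 regulators of carbon source use, 3 rose with lectin (37.5%, against 14.2% of all tested genes). GAL4 encodes the activator of the galactose genes. It had 50.2, 53.7 and 58.7 CPM (lowest, median and highest) in lectin samples, against 42.9, 45.9 and 49.7 CPM in controls, a log2 fold change of 0.22 (SE 0.048, edgeR adjusted p = 0.00258). The groups did not overlap, though by a narrow gap. An annotated noncoding RNA gene overlaps GAL4 and is not in the count table under that identifier, so reads from the 2 cannot be told apart here if counting ignored the strand.

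ERT1 encodes a regulator of gluconeogenesis and of growth on nonfermentable carbon. Its RNA stood at 59.2, 60.9 and 62.6 CPM in lectin samples, against 47.3, 52.6 and 56.8 CPM in controls, which was 0.21 higher (SE 0.046, edgeR adjusted p = 0.00286). The lectin samples were tightly grouped and all above the controls. ZNF1, which encodes a regulator of respiratory growth, had 72.8, 76.2 and 78.8 CPM in lectin samples, against 63.7, 68.9 and 70.0 CPM in controls (log2 fold change 0.16, SE 0.037, edgeR adjusted p = 0.00495).

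The other 5 carbon regulators did not pass the test. RDS2, which acts on gluconeogenic genes like its duplicate ERT1, had a log2 fold change of 0.07 (edgeR adjusted p = 0.311). The values were 0.06 for GSM1, a putative regulator of energy metabolism, -0.05 for SIP4, -0.02 for CAT8 and -0.02 for MAL33. CAT8 and SIP4 encode activators of gluconeogenesis that work once glucose is used up.

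Of the 11 regulators of drug and stress responses, 5 were higher with lectin (45.5%, against 14.2% of all tested genes), and the role groups, of 4 to 11 genes, were not tested against each other. ASG1, named as an activator of stress genes, had 61.6, 68.3 and 75.8 CPM in lectin samples, against 54.0, 57.0 and 60.9 CPM in controls. Its log2 fold change was 0.26 (SE 0.051, edgeR adjusted p = 0.00108), the smallest p of any member, and the groups did not overlap. TBS1, named for thiabendazole sensitivity, had 35.8, 39.6 and 41.2 CPM in lectin samples, against 32.1, 33.3 and 37.0 CPM in controls (0.20, SE 0.049, edgeR adjusted p = 0.00558). For TBS1, 5 of the 6 lectin samples were above every control.

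WAR1 encodes the activator of the weak acid efflux pump Pdr12. It had 52.5, 53.9 and 58.5 CPM in lectin samples, against 48.5, 49.8 and 51.1 CPM in controls, a log2 fold change of 0.14 (SE 0.038, edgeR adjusted p = 0.0108). YRR1, whose product activates drug efflux pump genes, had 84.9, 87.5 and 88.5 CPM in lectin samples, against 73.3, 80.8 and 82.3 CPM in controls (0.13, SE 0.038, edgeR adjusted p = 0.0165). In both genes the lectin samples were all above the controls, but the gap between the groups was narrow.

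PDR1 encodes the main activator of pleiotropic drug resistance. Lectin samples had 86.5, 88.5 and 96.1 CPM, against 81.5, 82.4 and 83.7 CPM in controls, and the log2 fold change was 0.12 (SE 0.036, edgeR adjusted p = 0.0238). The groups did not overlap, yet this was the weakest of the calls: without lectin 3 it was 0.10 with an adjusted p of 0.0609.

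The remaining 6 of this group did not pass. HAL9, a gene of salt tolerance, had a log2 fold change of -0.08 (edgeR adjusted p = 0.271), STB5, a regulator of NADPH supply under oxidative stress, 0.06, and PDR3, the partner and duplicate of PDR1, -0.05. YRM1, the duplicate of YRR1, stood at -0.04, RDR1, a repressor of drug resistance genes, at 0.01 and RDS1 at -0.01.

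**Figure D3:**
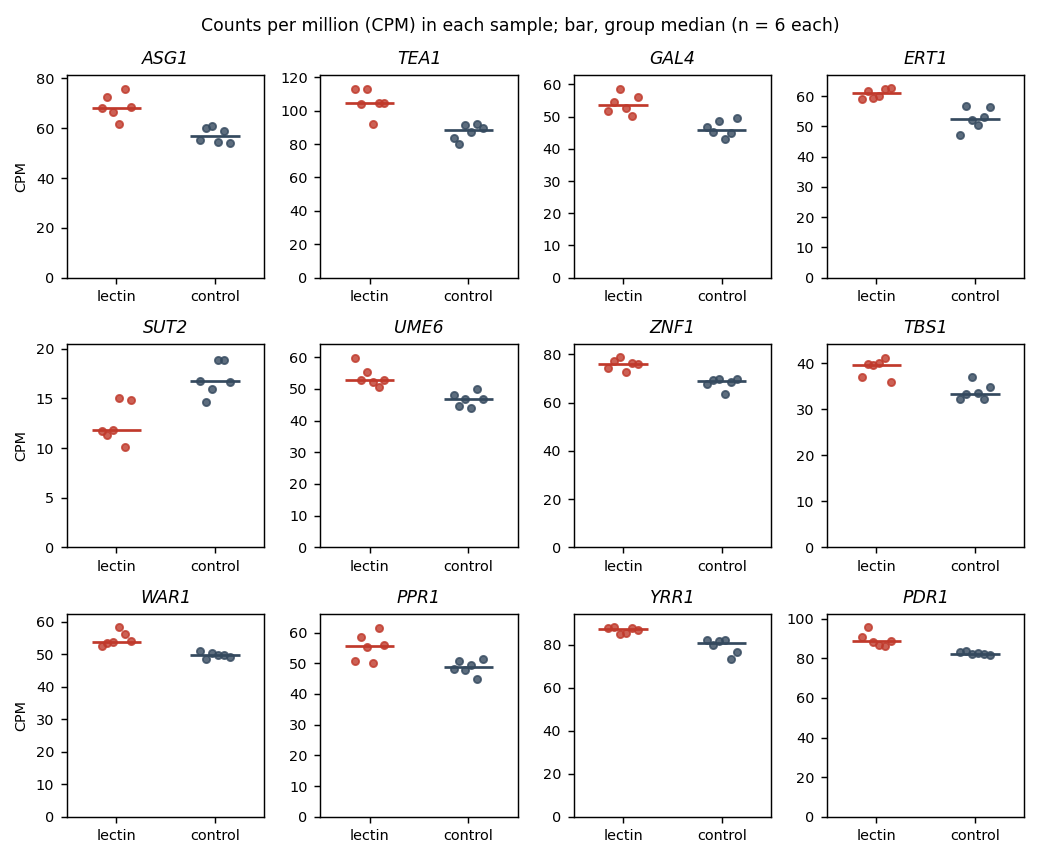
Level in CPM of the 12 members that passed the test, 1 panel each, with a point for every sample and a bar at the group median, lectin on the left and control on the right (n = 6 each). Axes start at 0, and in 8 of the panels all lectin points lie above all control points.

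Among 7 regulators of nitrogen and pyrimidine pathways, 1 rose (14.3%, against 14.2% of all tested genes). PPR1 encodes an activator of URA genes of pyrimidine synthesis. It had 50.2, 55.7 and 61.6 CPM in lectin samples, against 45.0, 48.8 and 51.4 CPM in controls, a log2 fold change of 0.18 (SE 0.053, edgeR adjusted p = 0.0156). The groups overlapped, with 4 of 6 lectin samples above every control. DAL81, needed for induction of several nitrogen pathways, had a log2 fold change of 0.11 (edgeR adjusted p = 0.111), and ARG81, part of the arginine-responsive complex, 0.10 (0.25). Without lectin 5 both passed, DAL81 at 0.14 with an adjusted p of 0.0176 and ARG81 at 0.16 with an adjusted p of 0.0111. Over the 22 alternative settings DAL81 passed in 3 and ARG81 in 2, with largest adjusted p of 0.231 and 0.436. URC2, named after a uracil catabolism gene of Lachancea kluyveri, had -0.10, PUT3, the activator of proline use, -0.05, and UGA3 -0.04. LEU3, the regulator of branched-chain amino acid synthesis, was at 71.0 CPM in lectin samples and 71.7 CPM in controls by the median, a log2 fold change of -0.00 (edgeR adjusted p = 0.966).

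Of 6 regulators of heme, sterol and fatty acid responses, 1 fell (16.7%, against 15.0% of all tested genes). It was the only member of the 44 to do so in this test. SUT2 is a gene of sterol uptake control and of low level. Its RNA had 10.1, 11.8 and 15.03 CPM in lectin samples, against 14.6, 16.7 and 18.9 CPM in controls, so that it fell by 26.3% (log2 fold change -0.44, SE 0.099, edgeR adjusted p = 0.00332). It was the largest change among the members, measured on 196 to 332 reads a sample, and 4 of 6 lectin samples were below every control. Its duplicate SUT1 had 6.92, 8.59 and 10.5 CPM in lectin samples, against 8.41, 9.30 and 11.3 CPM in controls (-0.14, SE 0.107, edgeR adjusted p = 0.342).

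HAP1 encodes the heme-responsive activator of respiratory genes. It had 156, 174 and 228 CPM in lectin samples, against 152, 162 and 181 CPM in controls, and the log2 fold change was 0.13 (SE 0.077, edgeR adjusted p = 0.229). A single lectin sample, number 2, held the highest value and the groups otherwise overlapped. OAF1 and PIP2, whose products pair up to activate peroxisomal genes on fatty acids, had log2 fold changes of 0.04 and 0.03, and TOG1, a regulator of fatty acid use, 0.08.

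Among 4 regulators of chromatin and centromeres, 1 rose. UME6 encodes the protein that holds early meiotic genes off in growing cells by bringing the Rpd3 histone deacetylase to them. It had 50.5, 52.8 and 59.8 CPM in lectin samples, against 44.02, 46.7 and 49.99 CPM in controls, a log2 fold change of 0.21 (SE 0.047, edgeR adjusted p = 0.00369), with no overlap.

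RSC3 and RSC30 encode partner subunits of the RSC chromatin remodeler. RSC3 had 21.2, 25.2 and 28.3 CPM in lectin samples, against 24.0, 29.2 and 33.0 CPM in controls, and just missed the threshold (-0.20, SE 0.082, edgeR adjusted p = 0.0728). It passed without control 7 (-0.25, adjusted p = 0.0225) and without lectin 6 (-0.24, adjusted p = 0.0493). RSC30 had a log2 fold change of -0.13 (edgeR adjusted p = 0.0787), and a near-identical partial copy, YHR054C, with at most 88 reads in a sample, could share reads with it. After a correction for GC content and length both passed, RSC3 at -0.23 (adjusted p = 0.0248) and RSC30 at -0.15 (adjusted p = 0.0406). Over the 22 alternative settings RSC3 passed in 5 and RSC30 in 2, with largest adjusted p of 0.163 and 0.171. CEP3, whose product binds centromere DNA, had -0.01.

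The last 8 members are less studied, and 1 of them rose (12.5%, against 14.2% of all tested genes). TEA1, which encodes an activator of the Ty1 retrotransposon enhancer, had 91.9, 104 and 113 CPM in lectin samples, against 80.3, 88.4 and 92.3 CPM in controls. Its log2 fold change of 0.27 (SE 0.053, edgeR adjusted p = 0.00129) was the largest increase of the family, and 5 of 6 lectin samples were above every control. PUL4, named after a pulcherrimin gene of Kluyveromyces lactis, had 0.13 (edgeR adjusted p = 0.143, and 0.0175 at a log2 fold change of 0.19 without lectin 5). Over the 22 alternative settings PUL4 passed in 2, and its largest adjusted p was 0.283. YKL222C had 0.07, EDS1 -0.06, YLR278C 0.06, YLL054C -0.03, STB4, a Sin3-binding protein gene, 0.02 and SEF1 0.01. For 28 of the 32 members that did not pass, the 95% interval of the log2 fold change lay within 0.25 on either side of 0.

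Members listed by hand as gene duplicates allow a further comparison, since the ratio of the 2 copies within a sample is free of scaling between samples. There were 8 such pairs, with 62.3% to 69.9% identical bases over their aligned coding DNA. These identities leave out gaps, and unrelated genes were not aligned for comparison, so they are no evidence of duplication. The ratio was compared between groups with an exact two-sided permutation test over 924 splits, whose smallest possible p is 0.00216, and adjusted over the 8 pairs. The ratio of the copies shifted in 4 pairs, each with an adjusted p of 0.0390. In every pair the group ranges overlapped, so these are shifts of the mean. Each of the 4 holds a member called on its own (TBS1, PDR1, SUT2 or YRR1), so the shifts partly restate those calls. Ratios of other gene pairs were not compared, and 29.1% of all tested genes were called.

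The log2 ratio of HAL9 to TBS1 was -0.16 ± 0.14 in lectin samples and 0.12 ± 0.13 in controls (SD, n = 6 each), a difference of -0.29 (exact permutation p = 0.00866). TBS1 was thus the more abundant copy by this mean in lectin samples and HAL9 in controls, per read and not per length. For PDR1 to PDR3 the log2 ratio was 1.21 ± 0.072 in lectin samples and 1.05 ± 0.084 in controls (n = 6 each), a difference of 0.16 (exact permutation p = 0.0130). For SUT1 to SUT2 it was -0.54 ± 0.24 in lectin samples and -0.84 ± 0.13 in controls (n = 6 each), a difference of 0.30 (exact permutation p = 0.0173). For YRR1 to YRM1 it was -0.03 ± 0.099 in lectin samples and -0.21 ± 0.13 in controls (n = 6 each), a difference of 0.18 (exact permutation p = 0.0195).

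The other 4 pairs did not pass. The difference in log2 ratio was 0.14 for ERT1 to RDS2 (exact permutation p = 0.117), although ERT1 passed on its own and RDS2 did not. It was -0.07 for RSC3 to RSC30, 0.03 for CAT8 to SIP4 and 0.01 for OAF1 to PIP2.

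**Figure D4:**
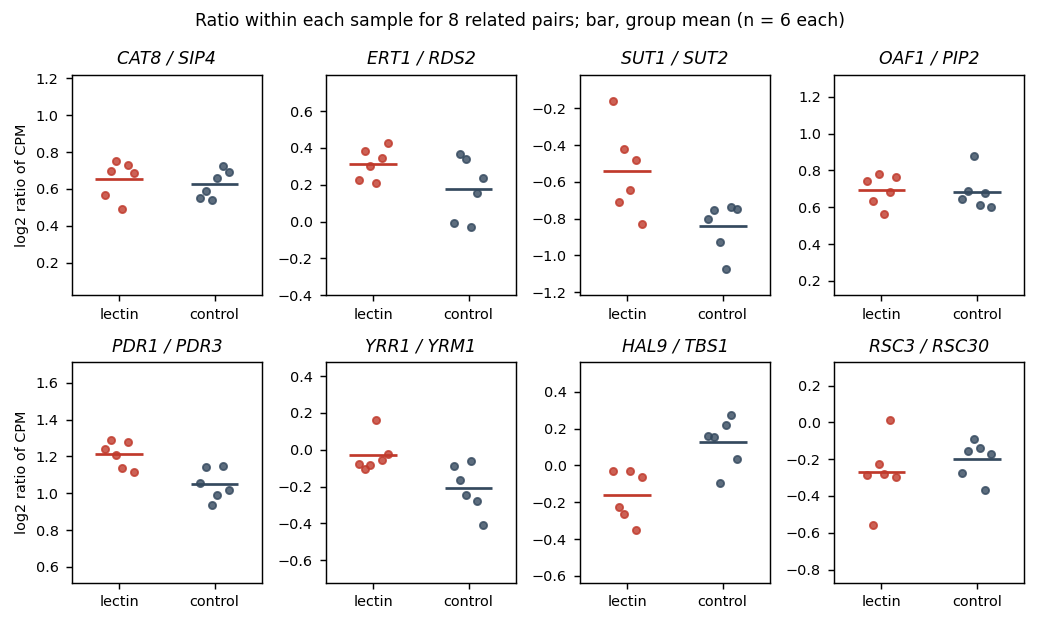
Log2 ratio of the CPM of the 2 genes of each of 8 duplicate pairs, with a point per sample, a bar at the group mean and lectin left of control (n = 6 each). The means of the groups differ for HAL9 to TBS1 (-0.16 and 0.12), PDR1 to PDR3, SUT1 to SUT2 and YRR1 to YRM1, with overlapping points in every pair.

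Genes of each regulator's pathway or complex, textbook targets among them, were listed by hand to set their RNA beside the regulator's. Promoter sites follow for 8 of them, read from the 500 bases before the start codon in RefSeq R64, 5′ to 3′ on the coding strand of the gene, with the fixed letters of the regulator's motif in capitals. Motifs were searched on both strands, and most share CGG or CCG triplets and can overlap.
GAL4 site before GAL1, chrII:278562-278590, plus strand: gaagtaCGGattagaagccgCCGagcggg
LEU3 site before LEU2, chrIII:91119-91142, plus strand: gagagcgCCGGaaCCGGcttttca
LEU3 site before BAT1, chrVIII:517378-517401, plus strand: gtgtttgCCGGtaCCGGcctttaa
PPR1 site before URA3, chrV:116008-116033, plus strand: tttgattCGGtaatctCCGagcagaa
PUT3 site before PUT1, chrXII:424871-424900, plus strand: ttcctttCGGcaatggctttCCGgttacca
PDR1 and PDR3 site before PDR5, chrXV:619342-619363, plus strand: ctctcttTCCGCGGAatcgctc
OAF1 and PIP2 site before POT1, chrIX:41607-41635, minus strand: aaaCGGggaTaAtagtattaacaCCGcag
UME6 site before INO1, chrX:136177-136198, minus strand: gcgcttcGGCGGCTAaatgcgg

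The motifs are rare among all 6025 promoters of the same length and were found in these shares of the lists. Motifs and textbook targets were both known beforehand, so the shares describe the lists and test nothing. GAL1 and GAL10 are each counted for the same shared sites. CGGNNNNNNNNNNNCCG (GAL4) was in 7 of 7 list promoters, against 2.99% of all. CCGGNNCCGG (LEU3) was in 7 of 9, against 0.266%, and TCCGCGGA (PDR1 and PDR3) in 5 of 16, against 0.647%. CGGNNNNNNCCG (PPR1) was in 3 of 7, against 2.69%, and CGGNNNNNNNNNNCCG (PUT3) in 2 of 3, against 2.66%. The OAF1 and PIP2 motif, from CGGNNNTNANNNNNNNNNCCG up to a form of 24 bases, was in 13 of 14, against 1.88%. TAGCCGCC (UME6), which stands before INO1 in reverse, was in 9 of 14, against 2.32%. CGGNNNTANCGG (HAP1) was in 0 of 10, against 0.349%, which says only that these letters are not in these windows. PDR3 has 2 copies of the PDR1 and PDR3 motif and SIP4 has a UME6 motif.

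Counts in these lists are read against the 14.2% of all tested genes that were higher and the 15.0% that were lower, and medians against 0.00 over all tested genes. Some lists hold members themselves (UGA3, PDR3, SUT1, SUT2, SIP4, RSC3, RSC30 and CEP3), so a call of such a member is counted there again. The median log2 fold change was -0.31 in the LEU3 list, -0.21 in the HAP1 list, -0.16 in the list of DAL81 and UGA3, -0.15 in the ARG81 list and -0.13 in the PPR1 list. It was nearer 0 in the others of 5 or more genes, from -0.09 for CAT8 and SIP4, PDR1 and PDR3, and SUT1 and SUT2 to 0.06 for UME6.

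For GAL4, which rose, 0 of 7 galactose genes passed edgeR's test, with 0 at an unadjusted p under 0.05 and 0 by DESeq2 or limma-voom. GAL1, the galactokinase gene, had 16.5 ± 0.64 CPM in lectin samples and 16.3 ± 0.66 CPM in controls (SD, n = 6 each). GCY1, the most abundant of the list, had 302 ± 14 and 318 ± 10 CPM in the same order, and GAL80, the gene of the inhibitor of Gal4, 91.7 ± 5.8 and 86.1 ± 6.2 CPM. The maltose genes next to MAL33 in function behaved alike in the test: 0 of 3 passed by edgeR, DESeq2 or limma-voom, with 0 at an unadjusted p under 0.05. MAL11, also listed, had 0 counts in every sample and was not tested. MAL31, the maltose permease gene, had 148 ± 9.7 CPM in lectin samples and 158 ± 12 CPM in controls, and MAL32 had 37.0 ± 2.7 and 38.0 ± 2.0 CPM, where reads may be shared with the related MAL12.

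For CAT8 and SIP4, neither of which passed, 2 of 12 gluconeogenic and related genes rose and 3 fell. PCK1, the gene of phosphoenolpyruvate carboxykinase, had 39.7 ± 3.2 CPM in lectin samples and 54.7 ± 1.9 CPM in controls (SD, n = 6 each), a log2 fold change of -0.46 (SE 0.052, edgeR adjusted p = 6.7e-06). ADH2, the ethanol-consuming alcohol dehydrogenase gene, moved the other way by 0.46 (SE 0.106, edgeR adjusted p = 0.00373). ACS1, an acetyl-CoA synthetase gene, had 0.26 and FBP1, the gluconeogenic phosphatase gene, -0.19. Without lectin 2 the list held 3 calls in place of 5.

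LEU3 itself differed least of any member by the test, while 5 of its 9 list genes fell and 0 rose by edgeR. BAT1, the mitochondrial branched-chain aminotransferase gene, had 649 ± 24 CPM in lectin samples and 987 ± 38 CPM in controls (SD, n = 6 each), a log2 fold change of -0.61 (SE 0.042, edgeR adjusted p = 3.0e-08). GDH1, the glutamate dehydrogenase gene, fell by 0.55, LEU1 by 0.41 and LEU2 by 0.37 on the log2 scale, and in each the lectin samples all lay below the controls. LEU3-type sites stand before BAT1, GDH1, LEU1 and LEU2, but also before ILV2, ILV5 and BAP2, which did not pass. ILV3, the other gene that fell (-0.31, edgeR adjusted p = 0.000535), had no such site in its window. The count of 5 was the same in all 22 alternative settings.

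**Figure D5:**
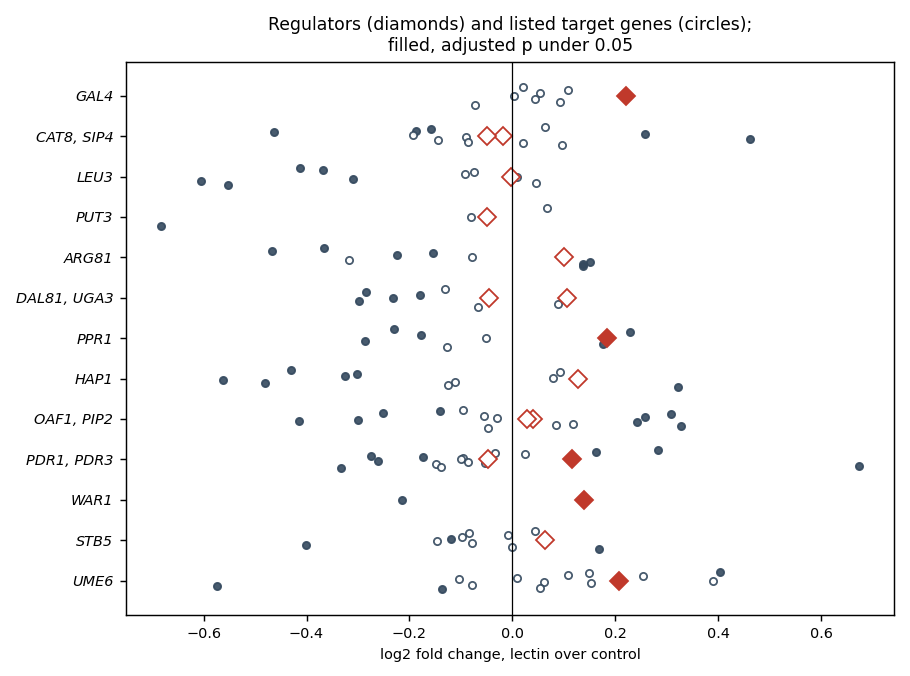
Log2 fold change, lectin over control, of the genes in the list of each regulator, where diamonds are the regulators, circles their list genes, and filled marks passed an adjusted p under 0.05. The called LEU3 list genes all lie below 0, from -0.61 to -0.31, while LEU3 lies at -0.00, and the GAL4 list lies close to 0.

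Nitrogen lists beyond LEU3 also held genes that fell. In the ARG81 list 4 of 9 fell and 3 rose. ARG3 and ARG1, both of arginine synthesis, fell by 0.47 and 0.37, and ARG8 by 0.22 (edgeR adjusted p = 0.00144, 0.00129 and 0.00179). ARG80, ARG82 and MCM1, partners of ARG81 in the arginine-responsive complex or its assembly, rose by 0.15, 0.14 and 0.14. For PUT3, 1 of 3 fell: PUT4, the proline permease gene, had 106 ± 17 CPM in lectin samples and 170 ± 16 CPM in controls (log2 fold change -0.68, SE 0.091, edgeR adjusted p = 3.9e-05). No PUT3 motif as searched was in the PUT4 window. In the DAL81 and UGA3 list 4 of 8 fell, among them the urea transporter gene DUR3 (-0.30), the GABA enzyme gene UGA2 (-0.28), the urea amidolyase gene DUR1,2 (-0.23) and the GABA permease gene UGA4 (-0.18).

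PPR1 rose while 3 of its 7 list genes fell and 2 rose. URA5, of the last steps of pyrimidine synthesis, had a log2 fold change of -0.29 (SE 0.051, edgeR adjusted p = 0.000504), URA1 -0.23 and URA3 -0.18. URA2, the gene of the first enzyme, had 0.23 and URA10 0.18. The PPR1 motif as searched stood before URA1, URA3 and URA4, and not before URA5, URA2 or URA10. Without lectin 6 the list held 3 calls in place of 5. LEU2 and URA3, genes often deleted in laboratory strains, had 579 ± 44 and 54.1 ± 3.2 CPM in lectin samples and 748 ± 38 and 61.3 ± 5.9 CPM in controls.

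Among 10 genes of heme and sterol function listed for HAP1, which did not pass, 5 fell and 1 rose. HMG1, the HMG-CoA reductase gene, had 344 ± 8.8 CPM in lectin samples and 508 ± 40 CPM in controls (SD, n = 6 each; log2 fold change -0.56, SE 0.050, edgeR adjusted p = 5.6e-07). ERG11 had -0.48, CYC1, the cytochrome c gene, -0.43 and the catalase gene CTT1 -0.33, each without overlap of the groups. YHB1, the flavohemoglobin gene, rose by 0.32. In the list for SUT1 and SUT2, SUT2 itself was the single call among 5. For OAF1 and PIP2, 4 of 14 rose and 4 fell: the peroxisomal division gene PEX11 fell by 0.41 and the acyl-CoA synthetase gene FAA2 by 0.30, while IDP3 and the catalase gene CTA1 rose by 0.33 and 0.31.

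In the list of PDR1 and PDR3, 3 of 16 genes rose and 4 fell. PDR5, the main drug efflux pump gene, had 520 ± 29 CPM in lectin samples and 427 ± 17 CPM in controls (SD, n = 6 each), a log2 fold change of 0.28 (SE 0.046, edgeR adjusted p = 0.000238). HXT11, a hexose carrier gene, rose by 0.67 from a low level, with 3.96 ± 0.63 and 2.48 ± 0.45 CPM in the same order. TPO4, a polyamine carrier gene, had -0.33, and PDR15, a pump gene related to PDR5 that also has the motif, -0.27. Without lectin 3 the list held 4 calls in place of 7. SNQ2 (0.16, edgeR adjusted p = 0.0212) was the single call among 6 genes listed for YRR1 and YRM1, and that call was lost without lectin 3 or lectin 4, while without lectin 5 there were 2 calls.

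WAR1 rose, and PDR12, the one gene listed for it, fell: it had 331 ± 28 CPM in lectin samples and 384 ± 12 CPM in controls (SD, n = 6 each; log2 fold change -0.21, SE 0.053, edgeR adjusted p = 0.00600). In the STB5 list of pentose phosphate pathway and NADPH genes, 1 of 10 rose and 2 fell. ALD6, a cytosolic aldehyde dehydrogenase gene, fell by 0.40, TKL1 by 0.12, and PGI1 rose by 0.17. That list held 1 call without control 2, control 6, lectin 4 or lectin 6, and 5 without lectin 5.

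UME6 rose, and of 14 list genes 1 rose and 2 fell. IME1, the master activator of meiosis and itself a partner of Ume6, had 56.3 ± 4.8 CPM in lectin samples and 42.6 ± 2.6 CPM in controls (SD, n = 6 each; log2 fold change 0.40, SE 0.057, edgeR adjusted p = 7.7e-05). INO1, the inositol synthase gene, had 517 ± 16 and 769 ± 48 CPM in the same order (-0.57, SE 0.047, edgeR adjusted p = 2.3e-07). RPD3 fell by 0.14. Among 17 RSC complex genes, the members RSC3 and RSC30 included, ARP9 was the single call (-0.22, edgeR adjusted p = 0.000516). The list held 2 calls without control 7, lectin 2, lectin 5 or lectin 6. Of 6 genes of the centromere-binding complex and its neighbours, CBF2 was the single call (0.16, edgeR adjusted p = 0.0252), lost without control 2, control 6, lectin 3 or lectin 4.

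Zinc cluster genes outside the 44 were looked at for comparison, 9 picked by hand, where the pattern search had found 15 genes outside the 44. MAL13 had 0 counts in every sample. Of the other 8, 4 rose (50%, against 14.2% of all tested genes) and 1 fell (12.5%, against 15.0%). The genes were picked with earlier results of these data known, so these shares describe the picks and test nothing. UPC2, the sterol-sensing activator, had 133 ± 20 CPM in lectin samples and 99.1 ± 6.0 CPM in controls (SD, n = 6 each; log2 fold change 0.43, SE 0.083, edgeR adjusted p = 0.00112), a larger rise than that of any member by the estimate. CHA4, THI2 and ECM22 rose by 0.19, 0.19 and 0.15, and LYS14, the lysine pathway activator, fell by 0.22. Mating type was not labelled, and genes specific to a cells and to alpha cells were both detected, at 15.8 to 19.2 CPM in lectin samples and 22 to 26.5 CPM in controls for the receptor gene STE2. The alpha-factor gene MF(ALPHA)1 had 31.1 to 39 CPM in lectin samples and 55.2 to 60.1 CPM in controls. Of the a-specific genes 5 of 6 fell, and of the alpha-specific genes 1 of 4 fell and 1 rose; their part in the members' changes was not tested.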

How the data were processed

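The authors deposited raw read counts per gene for 12 libraries. Per the submitters' processing notes, reads were trimmed with fastp, aligned to the R64 genome with HISAT2 and counted with featureCounts. Versions, the counting strand and the handling of reads that map to several places are not given in the sources used here, and strand-blind counting would add reads from overlapping genes. The series text describes strand-specific libraries.

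A gene was tested if 6 or more samples held 10 or more counts (6237 of 7192). The test was edgeR 4.0.16 (R 4.3.3; quasi-likelihood, TMM scaling, lectin over control), with Benjamini-Hochberg adjustment over all tested genes and calls at an adjusted p under 0.05. Over all of them 885 genes were higher and 933 lower. SE is the absolute log2 fold change over the square root of F, and intervals are 1.96 SE on either side. CPM values are counts scaled by the TMM-adjusted library size. The method was checked on simulated counts with known changes. In the simulated counts it recovered 64.7% of genes changed by 0.25, 92% of those by 0.5 and 98% of those by 1 (log2). False calls were 4.63%, against 8.77% for DESeq2 1.42.0. Far fewer genes were changed in the simulation than were called in the data, which alters the adjustment. Genes of all levels were also pooled, so these rates need not hold for the members.

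The members, their roles, the target lists and the tests were chosen with earlier results of these data known. Every member is named. The 12 with the smallest p are given by group values, and the called genes with the largest changes, at most 4 a list, are named. Other genes (ILV2, ILV5, BAP2, GAL80, ARG80, ARG82, MCM1, URA10 and those outside the 44) were chosen after their values were seen. No deposited column was left out. The limit that 3 counts set, 0.144 to 0.174 CPM, covers counting error only and lies far below every member. Alternatives covered DESeq2, limma-voom (limma 3.58.1), scaling, filters, a replicate block and each sample left out. The correction for GC content and length, and the alternatives for duplicate pairs, were chosen after seeing the data. Sequences and near-identical copies (BLAST 2.17.0) came from RefSeq R64.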

Additional observations from a re-analysis of the deposited data

Results flagged for a closer look

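The level of each member was looked at in each group for a sample far from its others, by Dixon's criterion for 6 samples. Of 88 such groups 3 stood out, where chance at this level gives about 4.4. HAP1, the heme-responsive activator, had 228 CPM in lectin 2, while the other lectin samples held 156 to 177 CPM. Without that sample its log2 fold change was 0.04 in place of 0.13. YRM1, the duplicate of YRR1, had 76.4 CPM in lectin 5, against 88.5 to 95.2 CPM in the other lectin samples. ARG81, of the arginine-responsive complex, had 94.9 CPM in control 8, against 86.8 to 89.6 CPM in the other controls. None of these 3 genes passed the test with all samples.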

How the results depend on the processing

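The 12 calls among the members were stable: of 264 values under other settings, 260 kept direction and significance, and 4 kept direction only. Those 4 were PDR1 without lectin 3 (0.10, adjusted p = 0.0609) and after correction for GC content and length (0.09, adjusted p = 0.0649), and YRR1 (0.12, 0.0568) and WAR1 (0.13, 0.0571) with the replicate block. With edgeR, DESeq2 or limma-voom, 11 members were higher and 1 lower. The number called was 11 to 15 as each sample was left out, with 10 to 14 higher and 1 to 2 lower. Members lower numbered 3 after the GC and length correction, 2 with the replicate block on 10 samples and 4 on the same 10 samples without it, where 18 were called in all. RSC3 was among the added calls in each of these. The RSC complex list, which itself includes RSC3 and RSC30, then held 3, 3 and 4 calls in place of 1. The block also added DAL81 (0.16, adjusted p = 0.0308) and TOG1 (0.15, adjusted p = 0.0465). The same 10 samples without it added RSC30 (-0.16, adjusted p = 0.0321), UGA3 (-0.12, adjusted p = 0.0445), ARG81, DAL81 and PUL4. Of all genes 1818 were called, and 1494 to 2347 as each sample was left out.

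The numbers 2, 3, 4, 6 and 8 occur in both groups, but same-numbered samples did not deviate together (correlations of -0.198 to 0.241), so the block is given here only. With it 13 members were called, and a paired comparison of 5 duplicate ratios cannot give an exact p below 0.0625. Members near 0 changed sign. RDS1 had 0.032 with the block and 0.031 on the same 10 samples without it, and STB4 -0.010 and -0.0089. After the GC and length correction MAL33 had 0.0064 and SEF1 -0.012. As each sample was left out, LEU3 ranged from -0.026 to 0.027, RDR1 from -0.014 to 0.029, RDS1 from -0.025 to 0.032, CEP3 from -0.033 to 0.015, STB4 from -0.0013 to 0.038, SEF1 from -0.030 to 0.028, MAL33 from -0.043 to 0.0082, YRM1 from -0.065 to 0.0019, CAT8 from -0.027 to 0.0032, YLL054C from -0.049 to 0.015, and the OAF1 to PIP2 difference from -0.0057 to 0.051. Scalings moved the median of all genes by less than 0.01.

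Depth limits SUT1 and SUT2 most, at 120 to 332 reads a sample. Small changes may go undetected in any of the 32 members not called, and for 28 of them the 95% interval lay within 0.25 on either side of 0. The intervals of SUT1, RSC3, HAP1 and PUL4 reached -0.35, -0.36, 0.28 and 0.26, so larger changes are not excluded for these.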
